A study of Mus musculus with 42 samples.

Results

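The imprinted growth genes Mest, Dlk1, Peg3, H19, Meg3, Cdkn1c, Plagl1, Grb10, Ndn and Sgce were followed by symbol through a table of mouse RNA-seq gene counts. All 10 symbols were found among its 55011 genes, and 41 other imprinted genes were set beside them. The genes were chosen by symbol with their counts in these libraries already known, and which of those values drew them in is not recorded. Every adjusted p-value given here was computed over all genes of a comparison and describes how far a gene stood from the spread between libraries. None of them is independent evidence about the set.

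Poly(A) RNA had been sequenced in 42 libraries of 15 groups, all from mouse visceral adipose tissue (VAT) or from cells grown from it. The stromal cells, the cultures and the floating cells shared the genotype Pparg-Tdt. Stromal populations labelled VmSC4 and VmSC5 were sequenced after 8 days in adipogenic medium (n = 3 each), after transfer into Kaeda recipient mice and directly after sorting (n = 3 each). The transferred cells were VmSC4-derived VmSC5 (n = 3), VmSC5-derived VmSC5 (n = 2) and VmSC4-derived VmSC4 (n = 3). Floating cells labelled adipocyte came from Pparg-Tdt:Foxp3-DTR+ mice and Foxp3-DTR- mice (n = 2 each, numbered 2 and 3). Both kinds of mice received diphtheria toxin, which kills regulatory T (Treg) cells that carry the toxin receptor under control of Foxp3. VmSC5 in adipogenic medium were cultured with Treg or without (n = 3 each), and with oncostatin M (OSM), a cytokine of the interleukin-6 family, at 10 ng/mL or with PBS (n = 3 each). Sample titles name Treg as present or absent in the well, whereas the series text speaks of conditioned medium of VAT Treg cells. Treg cells of genotype OSMf/f (knockout, KO) and OSM+/+ (wild type, WT) made up the last groups (n = 3 each). The labels do not give age, sex, sorting gates, the Cre line, the duration of the Treg and OSM cultures, or whether replicates are separate animals, so the p-values measure only the spread between these libraries, which may be technical.

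Totals ran from 1072147 to 12514783 counts per library, lowest in the OSM cultures and highest in fresh VmSC4. Levels are CPM, the usual read count scaled to the total of its library, and levels of different genes are compared per kilobase of exon sequence. Adipocyte and Treg cell markers fitted the labels. The 10 adipocyte markers together reached 41106 and 42531 CPM in cultured VmSC5 and VmSC4, and 2108 and 1679 CPM in the same cells when fresh. Foxp3 had at least 154 CPM in every Treg cell library and at most 0.81 CPM in any other library. The 6 macrophage markers summed to 137 to 339 CPM in VmSC5 of the Treg and OSM experiments (group means). Their sums were 4.84 CPM in fresh VmSC5 and 14.4 CPM in VmSC5 after 8 days of culture. The source of these macrophage counts was not tested.

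An imprinted gene is transcribed mainly from the allele of one parent. Paternally expressed genes as a class tend to favour growth and maternally expressed ones to restrain it, with many exceptions. Several of them act on fat: Dlk1, also called Pref-1, holds preadipocytes undifferentiated, and Mest is known in mice for its rise during expansion of fat tissue. Which allele was read was not measured here.

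The paternally expressed members were Mest, an enzyme-like protein of the alpha/beta hydrolase fold, the zinc finger proteins Peg3 and Plagl1, the Notch-related membrane protein Dlk1, necdin (Ndn), a growth suppressor of the MAGE family, and epsilon-sarcoglycan (Sgce). The maternally expressed ones were Grb10, an adaptor that dampens insulin and IGF1 receptor signalling (paternally expressed in neurons), the cyclin-dependent kinase inhibitor Cdkn1c (p57), and the non-coding RNAs Meg3 and H19. In GENCODE M21 (GRCm38), Mest lay at chr6:30723547-30748465 and Sgce at chr6:4674350-4747207. Peg3 (chr7:6703892-6730431), Ndn (chr7:62346569-62350262), H19 (chr7:142575529-142578143) and Cdkn1c (chr7:143458339-143461050) were on chromosome 7. Dlk1 (chr12:109452823-109463336) and Meg3 (chr12:109541001-109571726) were neighbours on chromosome 12. Plagl1 was at chr10:13060504-13131694 and Grb10 at chr11:11930508-12038683.

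Start-site windows of RefSeq (GRCm38.p6, 250 bases before to 50 after the start) were matched by symbol for 7 of the 10 members, with 11 windows in all. Imprinting is carried by methylation of CG dinucleotides, so a window each of Mest, the member that differed most between the floating cell groups, and of Grb10, which reached its highest levels in OSM-treated and transferred cells, is printed with every CG in capitals. The first is at chr6:30737800-30738099 on the plus strand and holds 17 CG, more than 68.5% of all 32851 windows. The second is at chr11:12037371-12037670 on the minus strand and holds 45 CG, more than 98.0% of windows. The median window held 7 CG (quartiles 3 and 20). The windows not printed held 8 and 17 CG for Mest and 9 CG for Grb10. Whether a printed window carries the imprinting methylation of its gene was not examined.
Mest: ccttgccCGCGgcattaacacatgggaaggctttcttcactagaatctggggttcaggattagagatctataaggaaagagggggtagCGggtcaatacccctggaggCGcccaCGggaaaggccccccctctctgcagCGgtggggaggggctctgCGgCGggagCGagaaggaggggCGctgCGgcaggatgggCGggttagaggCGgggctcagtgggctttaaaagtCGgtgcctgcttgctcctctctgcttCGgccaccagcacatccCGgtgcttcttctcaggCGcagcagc
Grb10: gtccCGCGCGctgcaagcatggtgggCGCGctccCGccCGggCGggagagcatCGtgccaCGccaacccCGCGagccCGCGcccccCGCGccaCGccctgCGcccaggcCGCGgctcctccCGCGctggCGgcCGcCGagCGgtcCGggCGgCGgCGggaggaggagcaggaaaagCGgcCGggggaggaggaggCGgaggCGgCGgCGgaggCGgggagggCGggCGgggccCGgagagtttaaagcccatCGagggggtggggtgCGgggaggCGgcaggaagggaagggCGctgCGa

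The window of Peg3, the member with the largest fitted rise after transfer, is at chr7:6730370-6730669 on the minus strand, with 13 CG. Its capitals mark GGGGCCCC, a G and C rich sequence of the kind bound by the Plagl1 protein. Both strands were searched, and the sequence reads the same on either.
Peg3: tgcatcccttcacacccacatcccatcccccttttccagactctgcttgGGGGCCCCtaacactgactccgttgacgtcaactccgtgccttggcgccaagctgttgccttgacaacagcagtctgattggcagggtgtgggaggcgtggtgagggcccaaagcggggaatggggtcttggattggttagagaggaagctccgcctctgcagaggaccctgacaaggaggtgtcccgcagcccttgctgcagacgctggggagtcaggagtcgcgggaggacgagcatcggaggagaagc
This was the single match among the 11 member windows, and 1.08% of all windows hold one. Neither AAGATGGC, a YY1 sequence found in 2.75% of windows, nor TTCNNNGAA, a STAT sequence found in 8.3%, occurred in these letters of any member window. Methylation and binding were not measured.

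Across the 15 groups each member had its own distribution. Mest was highest in the floating cells of DTR- mice, at 446 ± 135 CPM (SD, n = 2). The PBS cultures of VmSC5 followed at 79.5 ± 11.9 CPM (SD, n = 3), and the Treg cells were lowest, with 3.77 ± 3.72 CPM in KO and 4.43 ± 1.65 CPM in WT (SD, n = 3 each). In the order of its 15 group levels, neighbours had separate ranges at 3 of 14 steps.

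Ndn and Sgce peaked in the fresh stromal cells but were not confined to stromal cells. Ndn had 179 CPM in the OSM cultures, and Sgce had 68.9 CPM in DTR+ floating cells (group means). Ndn was highest in fresh VmSC5, at 305 ± 4.22 CPM, and in fresh VmSC4, at 302 ± 39.2 CPM (SD, n = 3 each), whose ranges overlapped. Per kilobase it was the highest member in every stromal and cultured group, at 82.7 CPM per kilobase in fresh VmSC5 and 18.97 in cultured VmSC5. Treg cells had 0 counts of Ndn in the 3 KO libraries and 1 count over the 3 WT libraries. Sgce also peaked in the fresh cells, at 169 ± 5.98 CPM in VmSC5 and 172 ± 22.2 CPM in VmSC4, and was the highest member per kilobase in DTR+ floating cells, at 6.49.

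Grb10 was highest in the OSM cultures, at 303 ± 18.97 CPM, followed by the transferred cells at 219 to 248 CPM (group means). It was at 28.0 ± 5.58 CPM in cultured VmSC5 and below 1 CPM in both Treg cell groups. On library totals its ordered neighbours had separate ranges at 8 of 14 steps, more than for any other member. This order depended on scaling. With TMM scaling over all libraries, Grb10 had 260 CPM in the OSM cultures and 257 CPM in VmSC4-derived VmSC5. The PBS cultures, at 177 CPM, then lay below those without Treg (187 CPM) and with Treg (213 CPM).

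Peg3 was highest in DTR- floating cells, at 97.0 ± 50.4 CPM, where the 2 libraries differed, and in the transferred cells at 73.2 to 83.2 CPM. Meg3 was highest in transferred VmSC4-derived VmSC5, at 189 ± 17.6 CPM, and near 0 in the floating cells, with 2 counts over the DTR+ and 7 over the DTR- libraries. Cdkn1c stayed at or below 16.2 CPM in every group mean and was highest in fresh VmSC4.

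Plagl1 separated the floating cells from all other material. It had 48.5 ± 44.7 CPM in DTR+ and 85.6 ± 12.8 CPM in DTR- floating cells (SD, n = 2 each), and at most 3.46 CPM in any other group mean. The ranges of the DTR+ and DTR- libraries overlapped.

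Dlk1, the preadipocyte factor, was barely detected. It had 77 counts in all 42 libraries together, 0 in 20 of them, and no library above 1.41 CPM. H19 had 431 counts and was at 0 in 25 libraries, with its highest value, 11.5 CPM, in a VmSC5-derived VmSC5 library. Igf2, the growth factor whose locus is shared with H19, had 11 counts in all libraries. These genes were too low for a change to be detectable in most comparisons.

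**Figure D1:**
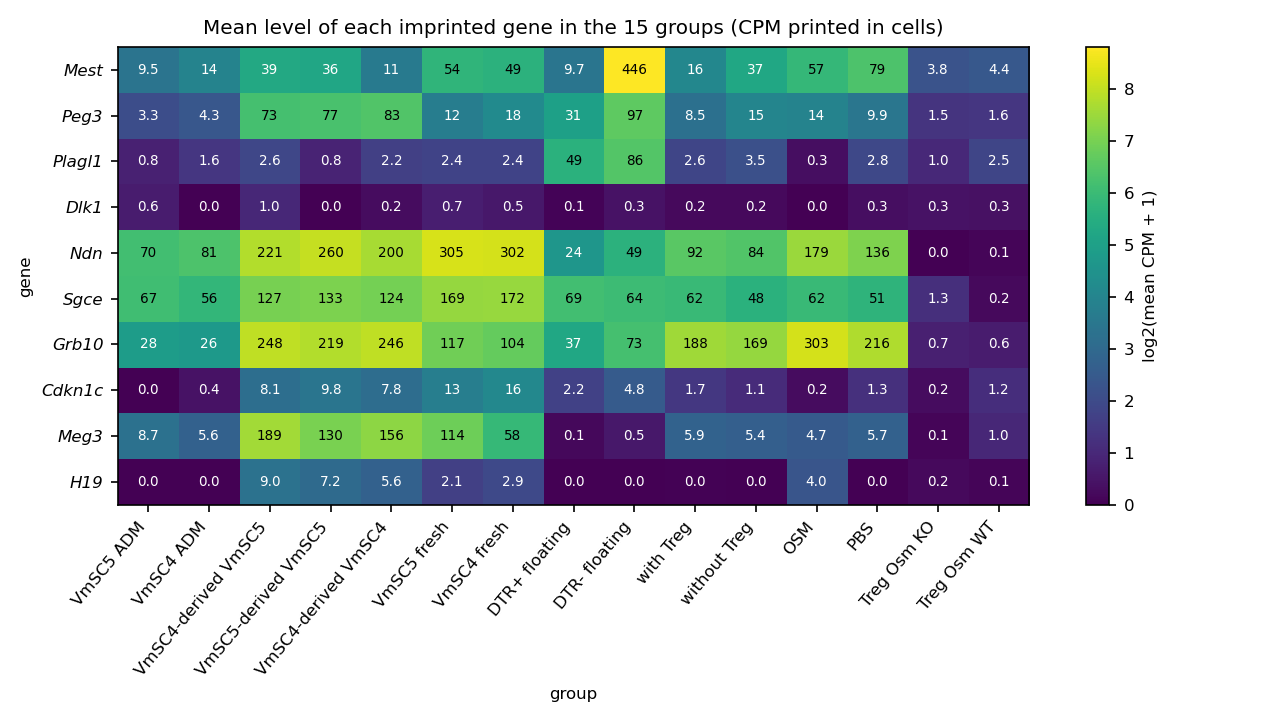
Mean level of each member (rows) in each of the 15 groups (columns), coloured by log2(mean CPM + 1) with the mean CPM printed in the cell. Mest stands at 446 CPM in the floating cells of DTR- mice, Plagl1 exceeds 3.46 CPM in the floating cells alone, and the Dlk1 row stays below 1 CPM.

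Patterns over the groups were compared by Pearson's r of group-mean log2(CPM + 1), among 11578 genes that reached 10 CPM in a group mean. These are descriptions over 15 points that share preparation and depth within an experiment. Among the genes most like Mest were Bahcc1 (r = 0.87) and Dock4 (0.84). Among those most like Peg3 were Afdn (0.94) and Ctif (0.90), and the closest to Plagl1 were Zyg11a (0.97), the imprinted gene Nnat (0.96) and Proca1 (0.95).

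For Ndn the closest genes were Plpp3, Smo and Vldlr, with r from 0.99 to 1.00. Sgce lay closest to Steap4, Ube2e2 and S100a16 (0.98 to 0.99) and Grb10 to Sestd1, Apbb2 and Parva (0.98 to 0.99). Meg3 lay closest to Pamr1, Tgfb2 and Mfap2 (all 0.98), and Cdkn1c to Gli2 (0.96), Glt8d2 and Inmt (both 0.93). Among the members themselves, Ndn and Sgce had the highest r, 0.96, and Meg3 and Plagl1 the lowest, -0.41. Dlk1 and H19 were below 10 CPM in every group mean and were not compared.

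The floating cells address whether removal of Treg cells alters the adipocyte fraction. Mest had the largest fall of the 7 tested members, to 13.5 and 5.86 CPM in the DTR+ libraries, against 541 and 351 CPM in the DTR- libraries. Raw counts were 101 and 43 in DTR+ and 3210 and 2615 in DTR-. The groups were far apart, and the mean was 46.1-fold lower in DTR+ cells. The fitted log2 fold change was -5.20 ± 0.72 (SE; edgeR quasi-likelihood test, adjusted p = 0.00192). Of the 11803 genes tested, 56 had a more negative log2 fold change, 42 of them past the threshold. Mest was 1 of 7 tested members past the threshold of adjusted p under 0.05, where 2.43% of all genes passed (1.94% lower).

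The other 6 tested members did not pass, although all of them but Sgce had lower means in DTR+ cells. Peg3 had 59.0 and 2.45 CPM in DTR+ libraries and 61.4 and 133 CPM in DTR- libraries, so that DTR+ replicate 3 stood far below the rest. Plagl1 had 80.1 and 16.9 CPM in DTR+ and 76.5 and 94.6 CPM in DTR-. Grb10 had 60.7 and 12.7 CPM in DTR+ and 53.4 and 92.4 CPM in DTR-. In each of these genes DTR+ replicate 3 was the lowest library, and DTR+ replicate 2 lay within the DTR- range or, for Peg3, just below it.

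Ndn was separate between the groups, at 19.2 and 27.9 CPM in DTR+ and 46.0 and 52.3 CPM in DTR-, as was Cdkn1c, at 2.54 and 1.91 CPM in DTR+ and 4.89 and 4.69 CPM in DTR-. With Mest and Peg3, 4 of the 7 tested members had separate groups, as had 51.1% of all genes tested. For the pair, edgeR gave adjusted p = 0.684 for Ndn and 0.683 for Cdkn1c. Sgce had 65.5 and 72.2 CPM in DTR+ and 69.1 and 59.2 CPM in DTR-, with overlapping ranges. The median log2 fold change of the 7 tested members was -0.69, against -0.04 over all genes.

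**Figure D2:**
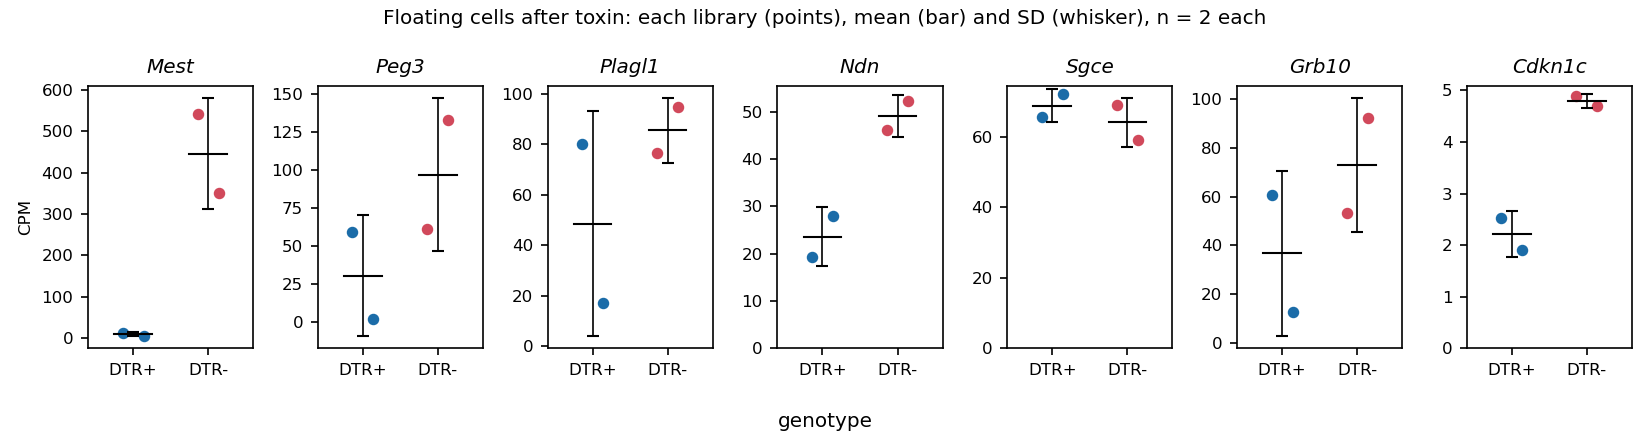
CPM of the 7 tested members in floating cells of DTR+ and DTR- mice (points are libraries, bars means, whiskers SD, n = 2 each; each panel has its own axis). Mest lies at 13.5 CPM or below in DTR+ and at 351 CPM or above in DTR-, while Peg3, Plagl1 and Grb10 are spread widely between the DTR+ libraries.

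Markers of other cells moved with Mest. The 5 endothelial markers summed to 24.6 and 4.23 CPM in DTR+ and 264 and 380 CPM in DTR-, and all 5 were called lower. The 8 stromal markers summed to 128 and 126 CPM in DTR+ and 656 and 1762 CPM in DTR-, with 5 of 7 tested called lower. The mesothelial and pericyte lists had 2 of 5 called lower each, and the 6 macrophage markers summed to 122 and 81.0 CPM in DTR+ and 293 and 365 CPM in DTR-. The 10 adipocyte markers summed to 84610 and 130430 CPM in DTR+ and 77365 and 67526 CPM in DTR-. Sums of the 5 other lists were lower in DTR+ libraries, and that of adipocyte markers was higher.

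Against these sums, Mest alone amounted to 541 and 351 CPM in DTR- cells, and to 40.2 to 64.9 CPM in fresh stromal cells of either population. Pdgfra, a defining stromal marker, had 3 and 0 counts in DTR+ and 7 and 11 counts in DTR- libraries. The part of other cells in the fall of Mest was not tested, and in bulk libraries fewer cells of a type and less RNA per cell cannot be told apart. Mest shares 912 exon bases with Copg2 on the opposite strand, and the strand setting of the counting is not given in the sources used here. Copg2 had 32.7 and 7.22 CPM in DTR+ and 37.1 and 72.3 CPM in DTR-, and was lower in both DTR+ libraries. The part of these shared bases in the counts of Mest was not tested.

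Without scaling factors the adjusted p of Mest was 0.268 at a log2 fold change of -5.52. In all other alternatives the fold change lay between -5.53 and -4.77, with adjusted p from 9.14e-21 to 0.0424. Without DTR+ replicate 2, where DTR+ replicate 3 stood alone for its group, Peg3, Plagl1 and Grb10 were also called lower and Sgce higher, and 5370 genes passed in place of 287. Peg3 was also called lower with the replicate numbers crossed as a block (adjusted p = 0.00592), a setting chosen after the data were seen, and with all 42 libraries in 1 fit (0.0170). Without DTR- replicate 3, 6 genes passed and Mest was among them.

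Of the other imprinted genes, Nnat, paternally expressed and known from nerve and fat cells, also fell. It had 121 and 104 CPM in DTR+ and 1014 and 662 CPM in DTR-, a log2 fold change of -2.47 ± 0.65 (SE; edgeR adjusted p = 0.0453). It was the 1 called gene among 11 paternally and 11 maternally expressed other genes tested. Igf2r, the maternally expressed receptor that clears IGF2, had 19.9 ± 6.77 CPM in DTR+ and 50.8 ± 27.1 CPM in DTR- and was not called (adjusted p = 0.456).

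The Notch genes Notch3 and Hey1 were called lower, at 0.13 ± 0.19 CPM for Notch3 in DTR+ and 12.9 ± 5.32 CPM in DTR-. Hey1 had 0 counts in both DTR+ libraries and 5.16 ± 1.04 CPM in DTR-. They were 2 of 7 tested genes of the Notch list.

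Most of the set was lower after adipogenic culture than in fresh cells, in both populations. Fresh cells were the only reference, so the medium, time in culture, preparation and depth cannot be told apart. Of 9 tested members, 7 fell in VmSC5 and the same 7 fell in VmSC4: Mest, Peg3, Ndn, Sgce, Grb10, Cdkn1c and Meg3. Cdkn1c and H19 had at most 2 counts in either cultured group. Both passed the filter on low counts only through fresh cells and could not have been called higher. The 7 include Cdkn1c, so its call adds little to the count. Of all genes, 71.0% passed in VmSC5 (33.4% higher, 37.6% lower) and 70.4% in VmSC4 (31.9% higher, 38.5% lower). The median log2 fold change of the members was -1.70 in VmSC5 and -1.50 in VmSC4, and that of all genes was -0.18 and -0.23. Without scaling factors the medians of all genes were -0.61 and -0.78, shifts of -0.43 and -0.54. The 7 members fell under that scaling too, but it moved the median of all genes downward and so could not test their falls. In the same libraries all 10 adipocyte markers were called higher and all 8 stromal markers lower in both populations. The 5 endothelial markers summed to 0.534 to 2.15 CPM in cultured VmSC5 and 98.1 to 131 CPM in fresh VmSC5, and to 0.543 to 1.53 CPM in cultured VmSC4 and 58.0 to 81.2 CPM in fresh VmSC4. Mesothelial sums were also lower in culture (21.4 to 22.4 CPM in cultured and 52.1 to 71.5 CPM in fresh VmSC5), and pericyte sums were higher (98.9 to 114 CPM in cultured and 20.6 to 53.0 CPM in fresh VmSC5), with the same directions in VmSC4. The part of these lists in the members' values was not tested. Pparg, the master regulator of fat cell genes, had 135 ± 5.08 CPM in cultured and 18.3 ± 7.10 CPM in fresh VmSC5.

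Meg3 had 6.45, 9.47 and 10.2 CPM in cultured VmSC5, against 101, 93.3 and 149 CPM in fresh VmSC5. In VmSC4 it had 5.97, 5.76 and 5.12 CPM in culture, against 55.2, 47.8 and 72.3 CPM in fresh cells. No cultured library came near a fresh one, and the log2 fold changes were -3.31 ± 0.25 in VmSC5 (edgeR adjusted p = 8.38e-12) and -2.84 ± 0.27 in VmSC4 (adjusted p = 9.89e-10).

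Cdkn1c was lost from the counts. Cultured VmSC5 had 0 counts in all 3 libraries against 348 counts in fresh VmSC5, which makes it at least 27.4-fold lower when 3 counts in the whole group are taken as the floor. Cultured VmSC4 had 2 counts against 568 in fresh VmSC4, a ratio of 52.9 (95% exact interval of the counts 14.6 to 438, counting error only). At 1841664 to 2606360 counts per library, levels well below 1 CPM could not be seen in these cultures. Another inhibitor of the same family, Cdkn1a (p21), went the other way, at 399 ± 11.1 CPM in cultured and 51.2 ± 12.4 CPM in fresh VmSC5 (log2 fold change 3.39 ± 0.15, edgeR adjusted p = 1.14e-16).

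Ndn, a suppressor of growth, had 58.9, 77.0 and 74.3 CPM in cultured VmSC5, against 301, 308 and 307 CPM in fresh VmSC5. The log2 fold change was -1.70 ± 0.14 (edgeR adjusted p = 1.83e-11), and in VmSC4 it was -1.36 ± 0.13. The groups did not overlap in either population, as was so for 78.0% of all genes in VmSC5 and 78.8% in VmSC4.

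Grb10 had 31.4, 21.5 and 31.0 CPM in cultured VmSC5, against 113, 119 and 121 CPM in fresh VmSC5. Its log2 fold change was -1.65 ± 0.16 in VmSC5 (edgeR adjusted p = 9.17e-10), and cultured VmSC4 gave -1.50 ± 0.16 (7.66e-09). Igf1r, one of the receptors it binds, was at 3.68 ± 0.65 CPM in cultured and 45.8 ± 3.40 CPM in fresh VmSC5. Sgce, the membrane glycoprotein, was the member with the smallest called fall, -0.89 ± 0.14 in VmSC5 and -1.08 ± 0.14 in VmSC4.

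Mest had 9.03, 10.3 and 9.08 CPM in cultured VmSC5, against 54.0, 61.0 and 45.9 CPM in fresh VmSC5. In VmSC4 it had 19.005, 15.7 and 8.38 CPM in culture, against 41.9, 64.9 and 40.2 CPM in fresh cells. Both falls were clear of the replicate spread, with log2 fold changes of -2.07 ± 0.26 (edgeR adjusted p = 1.03e-07) in VmSC5 and -1.23 ± 0.24 (7.89e-05) in VmSC4. Peg3 fell by 1.43 on the log2 scale in VmSC5 and by 1.50 in VmSC4.

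The low members gave little. Plagl1 had 0.75 ± 0.47 CPM in cultured and 2.44 ± 1.36 CPM in fresh VmSC5 and was not called in either population (edgeR adjusted p = 0.152 in VmSC5 and 0.997 in VmSC4). H19 had 0 counts in all 6 cultured libraries, which makes it at least 4.48-fold lower than the 57 counts of fresh VmSC5 and at least 6.71-fold lower than the 108 counts of fresh VmSC4. All 108 counts of fresh VmSC4 came from replicate 1, and edgeR gave no call. Dlk1 had 4 counts in cultured VmSC5 and 0 in cultured VmSC4.

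**Figure D3:**
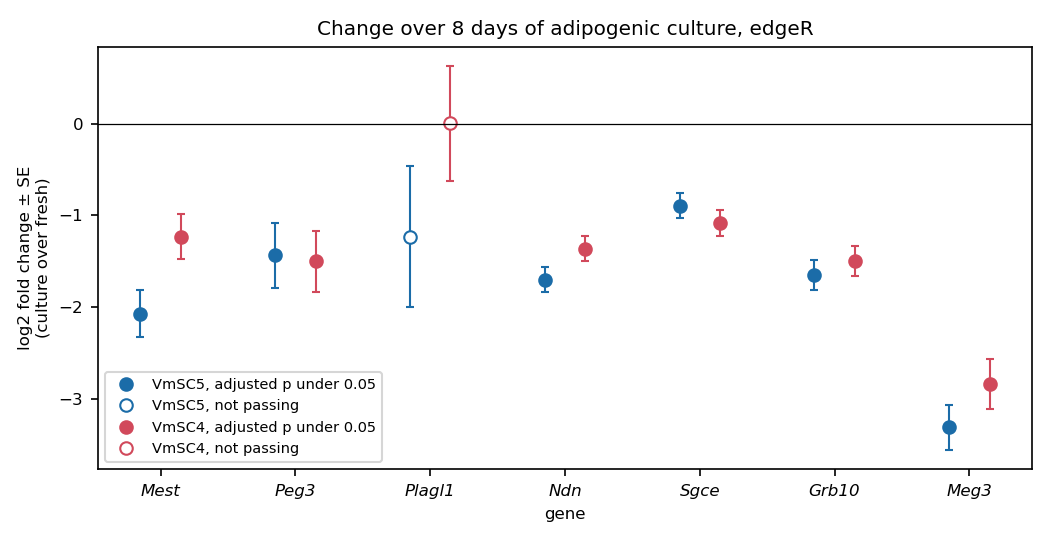
Log2 fold change (± SE, edgeR) of culture over fresh cells for 7 members in VmSC5 and VmSC4; filled points passed adjusted p under 0.05. The falls run from -0.89 for Sgce in VmSC5 to -3.31 for Meg3 in VmSC5, and Plagl1 did not pass in either population; Cdkn1c, H19 and Dlk1 are left out because cultured groups had 0 to 4 counts.

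Few genes of any kind differed between the cultured populations or between their culture responses. The lack of member calls there thus says little about the set. In cultured VmSC5 against cultured VmSC4, 0 of 9 tested members passed by edgeR or DESeq2 and 0 had an unadjusted p under 0.05, where 0.340% of all genes passed. The widest fitted difference among members with over 3 counts in both groups was that of Plagl1, -1.13 ± 0.89. For the difference between the culture responses, 0 members passed by either tool and 1, Mest, had an unadjusted p under 0.05, where 2.87% of all genes passed. The response of Mest in VmSC5 minus that in VmSC4 was -0.84 ± 0.36 (edgeR adjusted p = 0.223).

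Other imprinted genes changed in both directions in culture. Of the paternally expressed ones, 5 rose and 8 fell of 15 tested in VmSC5, and 4 rose and 7 fell in VmSC4. Of the maternally expressed ones, 3 rose and 7 fell of 12 tested in VmSC5, and 2 rose and 7 fell in VmSC4. Their median log2 fold changes were -0.95 and -0.80 in VmSC5 and -1.16 and -1.09 in VmSC4. Rasgrf1, a paternally expressed Ras exchange factor, had 0.14 ± 0.25 CPM in cultured and 78.4 ± 12.5 CPM in fresh VmSC5 (edgeR adjusted p = 1.46e-14). Igf2r had 18.1 ± 0.82 CPM in cultured and 137 ± 20.0 CPM in fresh VmSC5, a log2 fold change of -2.49 ± 0.18 (adjusted p = 3.43e-12). Nap1l4, a histone chaperone gene, was among those that rose, at 309 ± 7.26 CPM in cultured and 115 ± 13.0 CPM in fresh VmSC5.

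Of the partner lists, 6 of 7 tested Notch genes fell in VmSC5 and 5 of 7 in VmSC4, with Sox9, a factor of skeletal and progenitor cells, at 3.44 ± 1.30 CPM in cultured and 210 ± 36.5 CPM in fresh VmSC5. Insulin and IGF receptor genes had 2 called higher and 3 lower of 6 in each population. A mixed list of proliferation genes and cell cycle inhibitors, Cdkn1a and Cdkn1b among them, had 4 of 10 higher in VmSC5 and 5 of 10 in VmSC4. It had 0 lower in either, where 33.4% and 31.9% of all genes were called higher. Its calls therefore do not measure proliferation alone.

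The transfer experiment asks whether VmSC4 and VmSC5 convert into each other in a host. Before transfer the populations differed in 1 of 9 tested members. Meg3 had 101, 93.3 and 149 CPM in fresh VmSC5, against 55.2, 47.8 and 72.3 CPM in fresh VmSC4. All VmSC5 libraries lay above all VmSC4 libraries, with a log2 fold change of 1.06 ± 0.17 (edgeR adjusted p = 0.000228). Of all genes, 18.4% passed in this comparison (7.41% higher, 11% lower), and 32.5% had groups that did not overlap. Peg3 had 10.9, 10.4 and 15.2 CPM in VmSC5, against 18.0, 17.5 and 17.2 CPM in VmSC4, and did not pass (adjusted p = 0.0647), although it passed without VmSC5 replicate 3 (0.0172) and with library totals (0.0230). Over all alternatives the Meg3 call was kept.

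The other imprinted genes had 4 higher and 2 lower of 16 tested paternally expressed, and 3 higher and 2 lower of 13 maternally expressed. Rtl1, a retrotransposon-derived gene of the same chromosome 12 cluster as Meg3, had 11.98 ± 3.71 CPM in fresh VmSC5 and 4.16 ± 0.36 CPM in fresh VmSC4 (edgeR adjusted p = 0.000815). Igf2r had 137 ± 20.0 CPM in VmSC5 and 99.7 ± 17.6 CPM in VmSC4 (adjusted p = 0.00611). Igf1, the insulin-like growth factor, was the partner gene with the largest difference, at 299 ± 58.6 CPM in VmSC5 and 1389 ± 209 CPM in VmSC4.

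After transfer, Mest separated the progeny of VmSC4. VmSC4-derived VmSC5 had 30.1, 37.2 and 49.9 CPM, against 10.3, 12.2 and 11.7 CPM in VmSC4-derived VmSC4. The groups were apart, as for 24.2% of all genes, with a 3.42-fold higher mean and a log2 fold change of 1.87 ± 0.28 (edgeR adjusted p = 0.000705). It was the 1 called member of 9 tested, where 1.77% of all genes passed (0.746% higher), and leaving out any 1 library kept the call. Rasgrf1 went the other way, at 11.7 ± 2.00 CPM in VmSC4-derived VmSC5 and 25.7 ± 4.70 CPM in VmSC4-derived VmSC4 (log2 fold change -1.02 ± 0.19, adjusted p = 0.00578).

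Between the VmSC5 of different origin, 0 of 9 members passed by edgeR or DESeq2, where 1.15% of all genes passed, and 2, Meg3 and Plagl1, had an unadjusted p under 0.05. Mest had 48.7 and 23.8 CPM in VmSC5-derived VmSC5, on both sides of 2 of the VmSC4-derived values. Meg3 had 183, 209 and 176 CPM in VmSC4-derived VmSC5 and 137 and 124 CPM in VmSC5-derived VmSC5, with a log2 fold change of 0.61 ± 0.20 (edgeR adjusted p = 0.170). It passed with these 2 groups alone in the fit (adjusted p = 0.000821) and with no filter on low counts (0.0150). Rian, a non-coding RNA downstream of Meg3 in the same cluster, did pass, at 79.1 ± 10.9 CPM in VmSC4-derived and 43.4 ± 1.91 CPM in VmSC5-derived VmSC5 (adjusted p = 0.0221).

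Transferred cells were also compared with fresh cells of the same population. As no other reference was sequenced, the host, time, preparation and depth cannot be told apart. Totals were 1967123 to 5044946 counts in VmSC4-derived VmSC4 and 11186713 to 12514783 in fresh VmSC4. They were 4492774 to 4972189 counts in VmSC5-derived VmSC5 and 8527769 to 9709350 in fresh VmSC5. Compared with fresh cells, 7 of 9 tested members were called in VmSC4-derived VmSC4 (3 higher, 4 lower), where 46.1% of all genes passed (21.4% higher, 24.7% lower). In VmSC5-derived VmSC5 3 of 9 were called (2 higher, 1 lower), where 46.4% of all genes passed (23.9% higher, 22.4% lower). The median log2 fold change of the members was -0.24 and -0.28, against -0.02 and 0.01 for all genes. Stromal markers also rose, 7 of 8 in each comparison, and summed to 132745 to 136425 CPM in VmSC4-derived VmSC4 and 16439 to 27148 CPM in fresh VmSC4. Endothelial markers summed to 195 to 249 CPM in VmSC5-derived VmSC5 and 98.1 to 131 CPM in fresh VmSC5, with 3 of 4 tested called higher, and in VmSC4 2 of 4 were called higher. The part of these lists in the members' values was not tested.

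Peg3 had 75.7, 95.6 and 78.5 CPM in VmSC4-derived VmSC4, against 18.0, 17.5 and 17.2 CPM in fresh VmSC4. In VmSC5-derived VmSC5 it had 77.0 and 77.2 CPM, against 10.9, 10.4 and 15.2 CPM in fresh VmSC5. Every transferred library exceeded every fresh one. Groups did not overlap for 54.8% of all genes in VmSC4 and 64.0% in VmSC5. The Peg3 values gave log2 fold changes of 2.26 ± 0.16 in VmSC4 (edgeR adjusted p = 3.59e-11) and 2.61 ± 0.18 in VmSC5 (2.70e-11).

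Grb10, the adaptor of the insulin receptor, had 238, 273 and 227 CPM in VmSC4-derived VmSC4, against 109, 97.5 and 106 CPM in fresh VmSC4. In VmSC5-derived VmSC5 it had 226 and 212 CPM, against 113, 119 and 121 CPM in fresh VmSC5. The log2 fold changes were 1.26 ± 0.12 (edgeR adjusted p = 3.82e-09) and 0.84 ± 0.13 (7.16e-06). Sgce fell in both, by 0.45 in VmSC4 (adjusted p = 0.00280) and by 0.39 in VmSC5 (0.0156) on the log2 scale. The VmSC5 call of Sgce was lost without VmSC5-derived VmSC5 replicate 2 (adjusted p = 0.119; 0.119 was the highest value over its alternatives).

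In VmSC4 the cell cycle inhibitor Cdkn1c fell to 8.07, 6.10 and 9.12 CPM in VmSC4-derived VmSC4, against 12.3, 21.01 and 15.3 CPM in fresh VmSC4. The log2 fold change was -0.98 ± 0.28 (edgeR adjusted p = 0.00564). Its relative Cdkn1b (p27) was called higher, at 45.7 ± 3.04 CPM in transferred and 14.02 ± 0.80 CPM in fresh VmSC4 (adjusted p = 2.74e-08). Ndn fell to 199, 215 and 185 CPM, against 297, 265 and 343 CPM in fresh VmSC4 (log2 fold change -0.58 ± 0.11). H19 had 7.82, 6.61 and 2.38 CPM in transferred and 8.63, 0 and 0 CPM in fresh VmSC4, and passed without fresh VmSC4 replicate 1 (adjusted p = 0.00927) and in no other alternative.

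The difference between the transfer responses of the populations was compared after the data were seen, and Mest and Meg3 passed in it. Mest fell to 10.3, 12.2 and 11.7 CPM in VmSC4-derived VmSC4, against 41.9, 64.9 and 40.2 CPM in fresh VmSC4 (log2 fold change -2.08 ± 0.27, edgeR adjusted p = 2.47e-06). In VmSC5-derived VmSC5 it had 48.7 and 23.8 CPM, against 54.0, 61.0 and 45.9 CPM in fresh VmSC5 (-0.61 ± 0.26, adjusted p = 0.0613). Mest did pass in VmSC5 without a filter on low counts (adjusted p = 0.00439), without VmSC5-derived VmSC5 replicate 1 (0.00302) and without fresh VmSC5 replicate 3 (0.0340). The difference of the responses, VmSC5 minus VmSC4, was 1.46 ± 0.37 (adjusted p = 0.0177).

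Meg3 rose to 132, 177 and 158 CPM in VmSC4-derived VmSC4, against 55.2, 47.8 and 72.3 CPM in fresh VmSC4 (1.43 ± 0.18, adjusted p = 1.48e-06), and had 137 and 124 CPM in VmSC5-derived VmSC5, against 101, 93.3 and 149 CPM in fresh VmSC5 (0.13 ± 0.19). The difference of its responses was -1.29 ± 0.26 (edgeR adjusted p = 0.00423). These 2 of 9 tested members passed, where 8.58% of all genes did (5.37% more positive in VmSC5, 3.21% more negative). The Mest difference did not pass without VmSC4-derived VmSC4 replicate 1 (adjusted p = 0.0555), without VmSC5-derived VmSC5 replicate 1 (0.81, adjusted p = 0.280), which leaves 1 library of that group, or with all 42 libraries in 1 fit (0.0839).

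**Figure D4:**
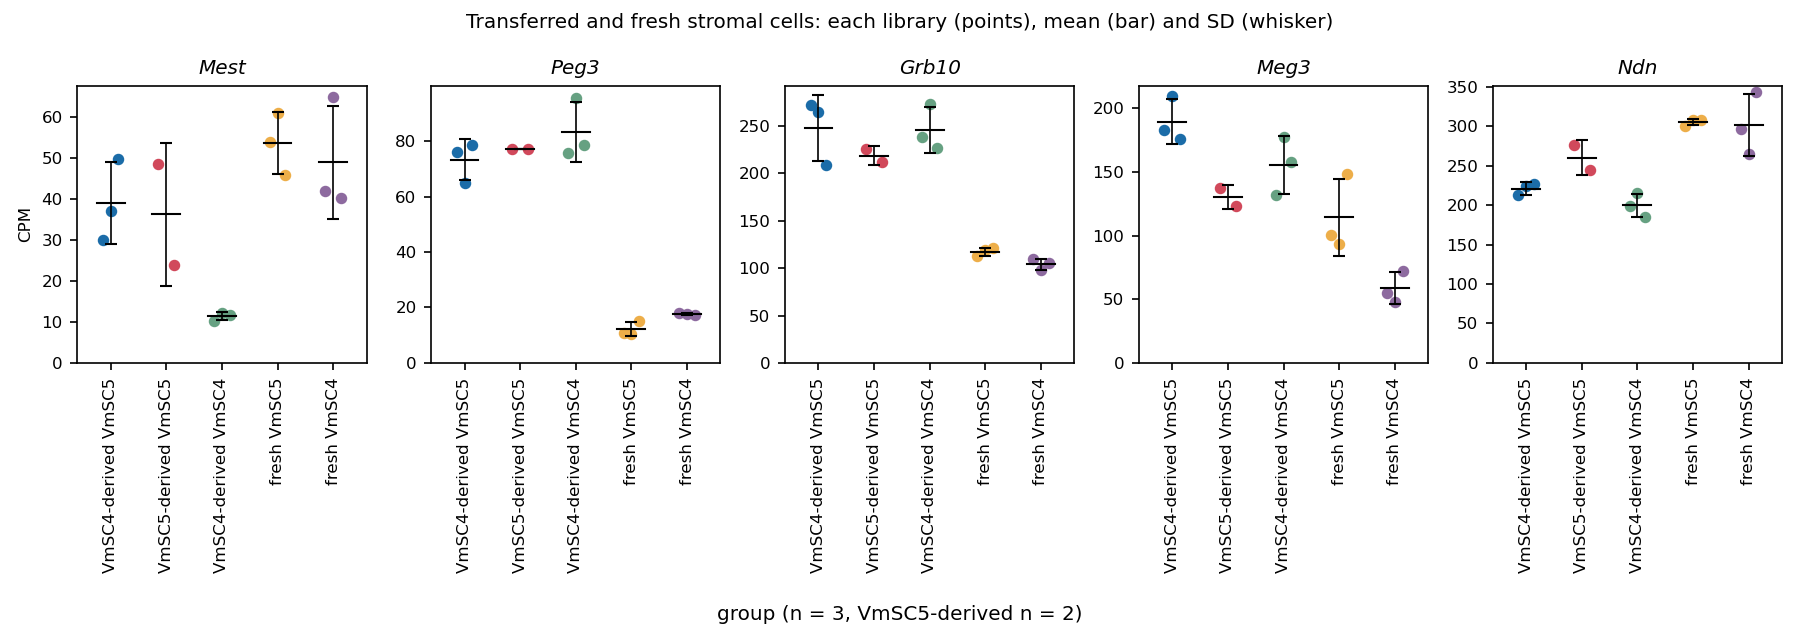
CPM of 5 members in the transferred and fresh stromal groups (points are libraries, bars means, whiskers SD; n = 3, and 2 for VmSC5-derived VmSC5; each panel has its own axis). Peg3 and Grb10 are higher in every transferred than in every fresh library, and Mest is lowest in VmSC4-derived VmSC4, at 10.3 to 12.2 CPM.

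Other imprinted genes also differed between transferred and fresh cells. Of 16 paternally expressed genes, 3 were higher and 2 lower in VmSC4, and 2 higher and 4 lower in VmSC5. Of 13 maternally expressed genes, 3 were higher and 5 lower in VmSC4, and 3 higher and 2 lower in VmSC5. Rian rose with Meg3 in VmSC4, to 87.3 ± 15.8 CPM in transferred cells, against 15.5 ± 5.27 CPM in fresh cells (edgeR adjusted p = 1.22e-10). Dio3, the thyroid hormone deiodinase of the same cluster, fell to 0.97 ± 0.91 CPM in transferred VmSC4, against 12.7 ± 4.95 CPM in fresh VmSC4 (adjusted p = 1.20e-05). Igf2r rose in VmSC4 (170 ± 27.6 CPM in transferred, 99.7 ± 17.6 CPM in fresh cells, adjusted p = 7.13e-05) and did not pass in VmSC5 (adjusted p = 0.267).

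The Treg and OSM cultures ask whether Treg products, and OSM among them, act on VmSC5 in adipogenic medium. With Treg, 4 of 8 tested members passed: Mest and Peg3 fell, and Sgce and Grb10 rose. Of all genes 43.4% passed (22.4% higher, 21% lower). The median log2 fold change was 0.16 for the tested members and 0.00 for all genes. In the same libraries 9 of 10 adipocyte markers were called lower and 7 of 8 stromal markers higher. Macrophage markers summed to 130 to 149 CPM with Treg and 234 to 272 CPM without, with 2 of 6 called higher and 1 lower. Pericyte sums were lower with Treg (36.8 to 39.4 CPM, against 73.8 to 76.1 CPM without), and mesothelial sums were higher (34.0 to 56.1 CPM, against 17.9 to 21.7 CPM without). The part of these lists in the members' values was not tested.

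Mest had 18.8, 19.05 and 10.2 CPM with Treg, against 42.4, 34.5 and 34.0 CPM without Treg. The groups did not overlap, as for 51.8% of all genes, and the log2 fold change was -1.19 ± 0.20 (edgeR adjusted p = 0.000549). Peg3 had 9.20, 6.81 and 9.61 CPM with Treg, against 16.7, 14.1 and 14.8 CPM without, with a log2 fold change of -0.82 ± 0.18 (adjusted p = 0.000248). Both genes were lower in every library with Treg than in any without.

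Sgce had 64.0, 64.6 and 56.2 CPM with Treg, against 44.3, 49.2 and 50.8 CPM without (0.37 ± 0.09, edgeR adjusted p = 0.000764). Grb10 had 196, 193 and 176 CPM with Treg, against 175, 161 and 171 CPM without (0.17 ± 0.06, adjusted p = 0.0330). That small rise was lost in 9 alternatives, among them DESeq2 (adjusted p = 0.0748) and each omission of 1 library other than replicate 3 with Treg (0.0529 to 0.149; highest over its alternatives 0.817). Ndn had 92.8, 97.4 and 84.9 CPM with Treg and 78.2, 83.1 and 89.3 CPM without, with overlapping ranges. It passed without replicate 3 with Treg (adjusted p = 0.0303). Meg3, Cdkn1c and Plagl1 were at or below 7.31 CPM in every library of both groups and did not pass.

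With OSM, 2 of 5 tested members passed, Grb10 and Ndn, both higher, where 45.8% of all genes passed (22.8% higher, 23% lower). The median log2 fold change was 0.52 for the tested members and 0.00 for all genes. Adipocyte markers summed to 1423 to 1950 CPM with OSM and 18600 to 20898 CPM with PBS, and all 9 tested were called lower. The adipocyte hormone gene Adipoq had 2.12 ± 1.92 CPM with OSM and 271 ± 48.2 CPM with PBS. Stromal markers summed to 49974 to 60346 CPM with OSM and 12188 to 12451 CPM with PBS, with 6 of 8 called higher. Endothelial markers summed to 129 to 158 CPM with OSM and 33.2 to 36.1 CPM with PBS, with 4 of 4 tested called higher, and pericyte markers to 61.0 to 82.1 CPM with OSM and 23.2 to 33.2 CPM with PBS, with 3 of 4 called higher. Mesothelial sums were higher with OSM, at 121 to 174 CPM, against 76.7 to 104 CPM with PBS, although 3 of 4 tested were called lower. Macrophage sums overlapped, at 274 to 452 CPM with OSM and 298 to 311 CPM with PBS. The part of these lists in the members' values was not tested.

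Grb10 had 322, 304 and 284 CPM with OSM, against 236, 203 and 209 CPM with PBS. The groups did not overlap, as for 53.6% of all genes, and the log2 fold change was 0.60 ± 0.10 (edgeR adjusted p = 6.98e-07). Ndn had 166, 161 and 211 CPM with OSM, against 138, 132 and 139 CPM with PBS (0.52 ± 0.11, adjusted p = 0.000175). Mest had 53.0, 49.4 and 69.0 CPM with OSM and 65.7, 86.6 and 86.1 CPM with PBS (-0.36 ± 0.16, adjusted p = 0.0590). The Mest ranges overlapped, and it passed with library totals (0.0140), without PBS replicate 1 (0.0147) and without OSM replicate 3 (0.00898). Sgce (0.38 ± 0.17, adjusted p = 0.0660) passed without PBS replicate 3 (0.0276).

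At 1072147 to 2078534 counts per library, the low members rested on single counts. H19 had 9, 3 and 3 counts with OSM and 0 in all 3 PBS libraries, at least 5.92-fold higher with OSM. Plagl1 had 1 count with OSM and 12 with PBS, a 10.1-fold lower level with OSM (95% exact interval of the counts 1.50 to 433). Cdkn1c had 1 count with OSM and 6 with PBS, a 5.07-fold lower level whose interval, 0.615 to 233, includes no difference.

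**Figure D5:**
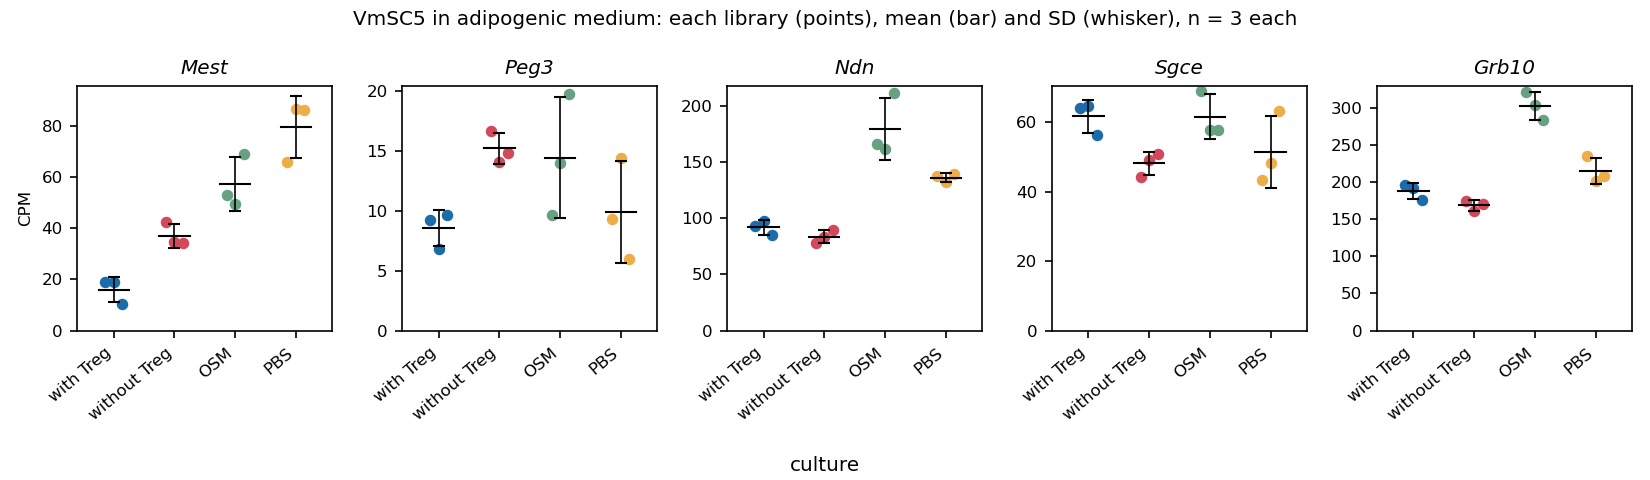
CPM of 5 members in VmSC5 cultures with Treg, without Treg, with OSM and with PBS (points are libraries, bars means, whiskers SD, n = 3 each; each panel has its own axis). Mest is lower in each library with Treg (10.2 to 19.05 CPM) than in any without (34.0 to 42.4 CPM), and Grb10 is higher with OSM than with PBS.

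The responses were compared directly, as the OSM response minus the Treg response in 1 fit. All 4 called members of 7 tested were more positive with OSM, where 32.5% of all genes passed (15% more positive). The difference was 0.87 ± 0.27 for Mest (edgeR adjusted p = 0.0139), 1.43 ± 0.39 for Peg3 (0.00310), 0.47 ± 0.11 for Grb10 (0.000909) and 0.41 ± 0.14 for Ndn (0.0167). The controls of the experiments differed: Mest averaged 79.5 ± 11.9 CPM with PBS and 37.0 ± 4.70 CPM without Treg. Without OSM replicate 3 only Grb10 passed (Mest adjusted p = 0.0718, Peg3 0.0587, Ndn 0.181). The Ndn difference was also lost without PBS replicate 2 (0.0519), with DESeq2 (0.0626), without a filter (0.0983) and with library totals (0.115), and with all 42 libraries in 1 fit none of the 4 passed (0.295 to 0.513).

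Among the other imprinted genes, paternally expressed ones had 2 higher and 4 lower of 13 tested with Treg, and 1 higher and 3 lower of 8 with OSM. Maternally expressed ones had 3 higher and 4 lower of 11 with Treg, and 2 higher and 2 lower of 8 with OSM. Cd81, a tetraspanin gene also known as a surface marker of fat progenitors in mice, had 742 ± 11.1 CPM with Treg and 484 ± 20.8 CPM without (edgeR adjusted p = 5.42e-12). It had 1201 ± 59.0 CPM with OSM and 776 ± 57.2 CPM with PBS (adjusted p = 5.85e-11). Nap1l4 was lower in both, at 224 ± 13.5 CPM with Treg and 368 ± 15.2 CPM without, and at 165 ± 15.3 CPM with OSM and 293 ± 25.5 CPM with PBS.

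Nnat had 0.93 ± 0.99 CPM with OSM and 14.5 ± 2.96 CPM with PBS (log2 fold change -3.57 ± 0.58, edgeR adjusted p = 9.04e-07). Igf2r rose with OSM, at 59.9 ± 7.42 CPM against 45.6 ± 3.85 CPM with PBS (adjusted p = 0.0190), and did not pass with Treg (0.327).

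Of the partner genes, Igf1 rose in both, to 274 ± 22.0 CPM with Treg, against 102 ± 4.85 CPM without, and to 484 ± 62.7 CPM with OSM, against 152 ± 21.4 CPM with PBS. Irs1, a substrate of the insulin receptor, fell to 3.24 ± 1.11 CPM with OSM, against 36.2 ± 1.91 CPM with PBS. Cdkn1a differed in direction, at 435 ± 19.2 CPM with Treg and 259 ± 4.78 CPM without, but 194 ± 12.7 CPM with OSM and 321 ± 20.2 CPM with PBS, a difference of responses of -1.34 ± 0.11 (edgeR adjusted p = 5.30e-14).

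The Treg cells of either genotype were compared last. Osm, the targeted gene, had 9.83, 14.6 and 7.76 CPM in KO libraries, against 29.1, 28.4 and 34.1 CPM in WT libraries, lower in every KO library. In these cells the imprinted set was near the detection limit. The 10 members together made up 2.65 to 16.1 CPM per library in KO and 10.6 to 13.2 CPM in WT cells. Mest, the single member that passed the filter on low counts, had 31, 0 and 13 counts in KO and 14, 21 and 15 counts in WT libraries. The KO range enclosed the WT range, and 0 of 1 tested members passed by edgeR (adjusted p = 0.986) or DESeq2 and 0 had an unadjusted p under 0.05, where 0.0526% of all genes passed. Igf2r was well expressed, at 61.6 ± 18.2 CPM in KO and 69.9 ± 20.7 CPM in WT cells, and was not called (adjusted p = 0.908).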

How the data were processed

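The deposited table holds whole-number counts of reads per gene in 42 libraries. The authors aligned poly(A) RNA reads with STAR 2.7.3a to mm10 and counted them with featureCounts, per the submitters' processing notes. The annotation release, the strand setting and the treatment of reads with several matches are not given in the sources used here. Per the labels' protocols, fresh libraries were made from 1000 sorted cells, culture wells were lysed directly, and floating cells gave 2 ng of RNA. Groups were taken from the labels.

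The members, gene lists and comparisons were chosen with earlier results of these data known. Every member is described. Of the 41 other imprinted genes, up to 4 called genes per comparison with the smallest adjusted p could be named, of each partner list up to 2, and Igf2 and Igf2r always.

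Counts were tested in R 4.3.3 with edgeR 4.0.16 (quasi-likelihood F test, robust, TMM scaling, filterByExpr with a minimum count of 10, two-sided), in 7 fits giving 15 comparisons, of which the difference between transfer responses was added after the data were seen. P-values were adjusted over all genes tested by Benjamini-Hochberg, with a threshold of 0.05. Standard errors are the absolute log2 fold change over the square root of F. CPM is relative to the library total, and lengths are the exon union of GENCODE M21. Folds against 0 counts use a floor of 3 counts over the group, and count ratios have exact binomial intervals of 95%. Intervals and floors cover counting error only. Likeness used a pseudocount of 1 CPM and a minimum of 10 CPM.

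Alternatives were RLE scaling, library totals, no low-count filter, a replicate block, DESeq2 1.42.0, fits of the 2 groups alone or of all 42 libraries, and leaving out each library. Library totals and a crossed replicate block for the floating cells were added after the data were seen. Replicate numbers were not treated as pairs in the main fits. Correlations of same-numbered deviations did not exceed 0.1 in every pair of any comparison. The floating cells had -0.397 for same-numbered and 0.397 for different-numbered pairs. With 2 libraries per group the deviations mirror each other, so these values have 1 size and could not settle the pairing. Between cultured VmSC5 and cultured VmSC4, same-numbered pairs had 0.164, 0.163 and 0.065, and different-numbered pairs had -0.16 to 0.031. Whether the numbers pair those samples was not settled. Scripts were tested on simulated counts.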

Additional observations from a re-analysis of the deposited data

Results flagged for a closer look

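Mest and Meg3 passed in the difference between the transfer responses of the populations, a comparison added after the data were seen. They are listed here because they passed. The Mest difference, VmSC5-derived VmSC5 over fresh VmSC5 minus VmSC4-derived VmSC4 over fresh VmSC4, was 1.46 ± 0.37 (log2, SE; edgeR adjusted p = 0.0177). It did not pass without VmSC4-derived VmSC4 replicate 1 (1.34, adjusted p = 0.0555), without VmSC5-derived VmSC5 replicate 1 (0.81, 0.280) or with all 42 libraries in 1 fit (1.44, 0.0839). All 3 VmSC4-derived VmSC4 libraries had less Mest than any fresh VmSC4 library, while the VmSC5 ranges overlapped. The Meg3 difference was -1.29 ± 0.26 (SE; edgeR adjusted p = 0.00423), with higher values after transfer in all 3 VmSC4-derived VmSC4 libraries and overlapping ranges in VmSC5. No cause was tested for either difference.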

How the results depend on the processing

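Of the alternatives run on single genes, 612 kept the side of the threshold, 29 lost the call, 24 gained one and 0 changed direction. TMM factors (0.552 to 1.58) moved 37 of 150 group levels by over 1 SD. With library totals, 2 members passed between fresh VmSC5 and VmSC4, and 0 genes and 0 members (no call by edgeR) between the floating cells, where DESeq2 called 545 genes, with 1 member. That scaling moved the median of all genes by -0.36 in floating cells, -0.10 with OSM, -0.13 for the OSM minus Treg response and 0.12 for the difference of culture responses.

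In the floating cells 287 genes passed, against 111 with the replicate block, 1055 (2 members) with the crossed block and 5228 (4 members) with all 42 libraries. The block changed 1 single-gene call, Grb10 with Treg (adjusted p = 0.0793), and the crossed block gained 1, Peg3 in the floating cells (-2.34, 0.00592). VmSC4-derived VmSC5 against VmSC4-derived VmSC4 had 247 genes, against 450 without a filter, 482 by DESeq2 and 893 with the 2 groups alone. Against VmSC5-derived VmSC5 it had 160, against 314 (1 member), 274 and 529 (1 member). The cultured populations had 45, against 167, 94 and 215. The culture responses had 379, against 644 without a filter, 621 by DESeq2 and 146 with all libraries. KO against WT Treg cells had 6, against 199, 64 and 460 (1 member). With all libraries the Treg comparison had 2005 genes (1 member; Peg3 adjusted p = 0.258 and Sgce 0.425), the OSM minus Treg response 1623 (0 members), the transfer responses 400 (1 member) and the OSM comparison 0 members. The causes were not tested.

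Leaving out 1 library gave 6 to 5370 genes for the floating cells (1 to 5 members), 1748 to 2602 for fresh VmSC5 against VmSC4 (1 to 2), 0 to 586 for KO against WT (0), and 17 to 99 for the cultured populations (0). It gave 39 to 166 genes for VmSC4-derived VmSC5 against VmSC4-derived VmSC4 (1 member) and 31 to 84 against VmSC5-derived VmSC5 (0). Transferred against fresh cells gave 5425 to 5969 in VmSC4 (7 to 8 members) and 4669 to 6201 in VmSC5 (2 to 6), with 322 to 1449 for the difference (1 to 2). Culture gave 8418 to 9065 in VmSC4 and 8464 to 9115 in VmSC5 (7 members each), with 155 to 661 for the difference (0). The Treg comparison gave 4778 to 5363 (3 to 5), the OSM comparison 3989 to 4364 (2 to 3) and their difference 3547 to 3839 (1 to 4). Where a group was left with 1 library, it was assumed to vary like the other groups of the fit. At 1072147 to 12514783 counts per library, Dlk1 and H19 were too low for changes to be seen in most groups.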

Other observations

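Several other imprinted genes differed between transferred groups, or between transferred and fresh cells, in patterns of their own. Impact, a paternally expressed gene that inhibits a translation control kinase, had 109 ± 15.2 CPM in VmSC5-derived VmSC5 and 44.1 ± 6.27 CPM in fresh VmSC5 (SD, n = 2 transferred and 3 fresh; edgeR adjusted p = 4.23e-07). Ube3a, a ubiquitin ligase gene imprinted in neurons, had 28.2 ± 2.16 CPM in VmSC5-derived VmSC5 and 8.02 ± 3.18 CPM in fresh VmSC5 (edgeR adjusted p = 5.53e-05), and 21.4 ± 1.56 CPM in VmSC4-derived VmSC4 and 19.3 ± 7.78 CPM in fresh VmSC4, where it was not called. Rasgrf1 had 11.7 ± 2.00 CPM in VmSC4-derived VmSC5 and 45.9 ± 1.64 CPM in VmSC5-derived VmSC5 (edgeR adjusted p = 1.24e-06). In culture, Airn, the non-coding RNA that overlaps Igf2r on the opposite strand, had 2.40 ± 1.28 CPM in cultured and 59.3 ± 4.93 CPM in fresh VmSC5 (edgeR adjusted p = 7.85e-13). Counts of overlapping genes cannot be told apart without strand.

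In Treg cells, Sgce had 16 counts over the 3 KO libraries, 15 of them in replicate 1, and 2 counts over the WT libraries. Cdkn1c had 1 count in KO and 13 in WT, 10.05-fold lower in KO (95% exact interval of the counts 1.51 to 427), and Meg3 1 count in KO and 11 in WT, 8.501-fold lower (1.24 to 366). These intervals cover counting error only.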
